A study of Homo sapiens with 5 samples.

Results

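The comparison described here sets ribosome footprints of the HEK293T library labelled QTRT1 KO against those of the HEK293T libraries labelled QTMAN KO; footprints of QTRT1 were low where its label says, while those of the QTMAN gene were not, as given below. It takes 3 of the 5 libraries of the series, 1 labelled QTRT1 KO and 2 labelled QTMAN KO, and every transcript row that carries a coding length, 93916 of 182398. HEK293T is a human embryonic kidney cell line, labelled epithelial. The other 2 libraries, labelled QTGAL KO, are shown beside them, and the fit takes part of its estimate of spread from them. The labels name no added treatment or time point. They do not say whether the libraries of a genotype came from separate clones or cultures, and a p-value here covers only the scatter of these libraries, possibly technical. Unmodified cells were not analysed here, and every difference is one between knockouts.

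Queuosine replaces a guanosine in the anticodon's first, wobble base in 4 tRNAs, those for aspartate, asparagine, histidine and tyrosine. Human cells cannot make its base, queuine, and take it up from food, from gut bacteria or from the medium. QTRT1 is the catalytic subunit of the tRNA-guanine transglycosylase, which works with its partner QTRT2 and exchanges the guanine for queuine in all of these tRNAs. QTMAN, a glycosyltransferase whose older symbol is GTDC1, then adds mannose to the queuosine of the aspartate tRNA. QTGAL, with the older symbol B3GNTL1, adds galactose to that of the tyrosine tRNA. Loss of QTRT1 thus removes the modification from every one of these tRNAs, and loss of QTMAN leaves the modification but removes its sugar on the aspartate tRNA. The comparison asks how footprints differ between these states.

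Footprints summed to 13918194 counts in the QTRT1 library, to 18861713 and 25291912 in QTMAN libraries 1 and 2, and to 12002044 or more in the QTGAL libraries. Levels are given in CPM, footprints scaled to a common library size with TMM factors, so that a CPM compares 1 row between libraries and not different genes with each other. The files name rows by transcript identifier only. Gene names were inferred from coding length and from the order of genes along the chromosomes, as 1287 genes on 1362 rows, and any single name could be wrong. No RNA levels were analysed here, so a change in mRNA and a change in its translation cannot be told apart. In these bulk samples, fewer cells of a type and less RNA per cell cannot be told apart either.

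The targeted gene was examined first. QTRT1 footprints stood at 1.28 CPM (18 counts) in the QTRT1 library, at 10 and 10.6 CPM in QTMAN libraries 1 and 2 and at 13 and 8.26 CPM in the QTGAL libraries. The QTRT1 library lay below all 4 others, by 8.03-fold against QTMAN (log2 fold change -3.01 ± 0.36 SE, edgeR's quasi-likelihood test, Benjamini-Hochberg adjusted p = 0.013). All 4 called rows of the gene were lower.

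GTDC1, the gene of QTMAN, gave no such check of the QTMAN labels. Its 459-codon row held 0.427 CPM in the QTRT1 library, 7.86 CPM in QTMAN library 1, 0.614 CPM in QTMAN library 2, and 0.545 and 0.758 CPM in the QTGAL libraries. The gene was thus highest in a library labelled as its own knockout and near the same low level in the other 4. In QTMAN library 1, this row had 150 counts, and rows of 330 and 377 codons of the same gene had 148. There, a row of 341 codons had 4, one of 174 codons had 2 and one of 100 codons had 1. The counts thus did not follow row length. The fitted log2 fold change of -3.24 ± 1.31 SE was not called with both QTMAN libraries (edgeR's quasi-likelihood test, Benjamini-Hochberg adjusted p = 0.38) and was called without QTMAN library 2 (-4.18). A fit without 1 QTMAN library, here and below, sets 1 library against 1 and takes its spread from the QTGAL pair alone, so a call in it shows no replicated difference. The sources used here do not give the kind of edit, so it is not known whether GTDC1 footprints should be lost. The QTMAN samples are therefore called the libraries labelled QTMAN KO, or QTMAN libraries for short, and each direction below rests on those labels.

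The other genes of the pathway gave no call, though B3GNTL1 had an edgeR unadjusted p of 0.036; DESeq2 gave an adjusted p for 1 of the 6 pathway genes and called none. QTRT2 stood at 13 CPM in the QTRT1 library against 15.4 and 17.2 CPM in the QTMAN libraries (log2 fold change -0.33 ± 0.20 SE). B3GNTL1 stood at 1.14 CPM against 2.73 and 1.88 CPM, with 0.629 and 0.758 CPM in the QTGAL libraries, where it is the labelled target. QNG1, which releases queuine from its nucleoside, stood at 11 CPM against 9.12 and 8.52 CPM. SLC35F2, a membrane transporter of queuine, stood at 11.7 CPM against 11.5 and 8.72 CPM. Adjusted p-values of these 4 genes ran from 0.40 to 0.78 (edgeR's quasi-likelihood test, Benjamini-Hochberg). Of the 6 pathway genes, QTRT1 alone was called.

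Few rows separated the QTRT1 library from both QTMAN libraries. edgeR's quasi-likelihood test called 43 rows higher (0.0705% of 60966 tested) and 28 lower (0.0459%) at a Benjamini-Hochberg adjusted p under 0.05, while 6926 rows had an unadjusted p under 0.05. The 71 rows belonged to 23 named genes, 14 higher and 9 lower, and to 2 rows without a name next to SPINT2. Isoform rows share footprints, so rows are not independent; with 1 row per run of neighbours, 8 were called. The count rose when a library was left out, to 246 without QTMAN library 1, 1144 without QTMAN library 2, 172 without QTGAL library 1 and 342 without QTGAL library 2, and each of these sets held all 71. DESeq2 called 46 higher and 117 lower among the 12505 rows to which it gave an adjusted p.

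Effect sizes were also set against the spread of the QTMAN libraries without a test. Over 26221 rows with a mean of at least 5 CPM, the log2 difference, on the scale of log2(CPM + 1), had an SD of 0.334 between the QTRT1 library and QTMAN library 1. It was 0.309 against QTMAN library 2, and 0.246 between both QTMAN libraries. The QTRT1 library exceeded both QTMAN libraries by at least 2-fold in 43 rows (0.164%) and lay below both by at least 2-fold in 26 rows (0.0992%). Taken pair by pair, 143 rows were at least 2-fold higher and 90 lower in the QTRT1 library than in QTMAN library 1, and 88 higher and 70 lower than in QTMAN library 2. Between the QTMAN libraries, 39 rows were at least 2-fold higher in library 1 and 19 in library 2. Of the rows past 2-fold, 21 higher and 14 lower were also called.

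**Figure D1:**
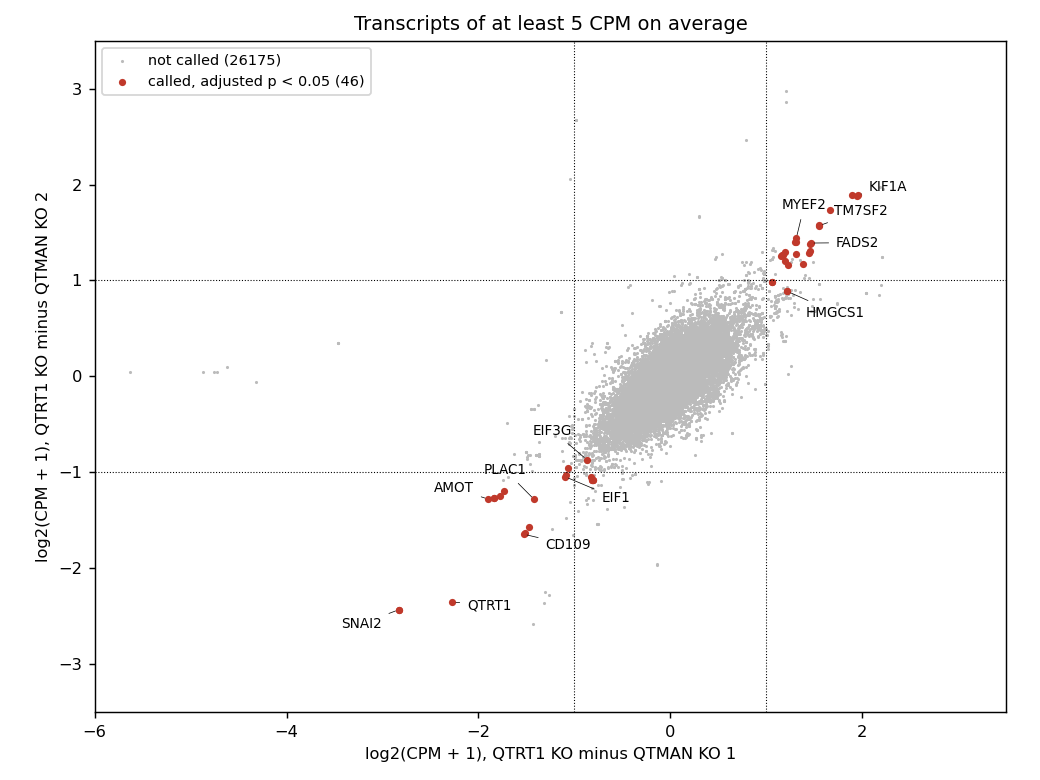
Each point is 1 of the 26221 transcript rows with a mean of at least 5 CPM, placed by its log2(CPM + 1) difference from QTMAN library 1 (x axis) and from QTMAN library 2 (y axis); dotted lines mark 2-fold and red points were called by edgeR. Called rows lie near the diagonal, where both QTMAN libraries give a like difference, which the test itself favours. Among them SNAI2 and QTRT1 lie lowest and KIF1A highest. A few grey points at the far left were high in QTMAN library 1 alone.

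Lipid synthesis genes were among the higher ones. FADS2, the delta-6 desaturase of polyunsaturated fatty acid synthesis, stood at 38.4 CPM in the QTRT1 library against 13.3 and 14 CPM in QTMAN libraries 1 and 2, with 15.3 and 16.7 CPM in the QTGAL libraries. It rose 2.81-fold (log2 fold change 1.49 ± 0.16 SE, edgeR's quasi-likelihood test, Benjamini-Hochberg adjusted p = 0.010), and 7 of its rows were called. TM7SF2, a sterol reductase of cholesterol synthesis, stood at 12.5 CPM against 3.62 and 3.52 CPM, with 3.65 and 5.22 CPM in the QTGAL libraries. Its rise of 3.51-fold (log2 fold change 1.81 ± 0.24 SE, edgeR adjusted p = 0.018) left the QTRT1 library well apart from the other 4. HMGCS1, the synthase that commits acetyl-CoA to the mevalonate pathway, stood at 146 CPM against 61.9 and 78.3 CPM, with 79.8 and 95.3 CPM in the QTGAL libraries. It rose 2.07-fold (log2 fold change 1.05 ± 0.16 SE, edgeR adjusted p = 0.042). TM7SF2 is not a member of the sterol list used below.

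The other direction held 1 gene of lipid synthesis. ACLY, which makes cytosolic acetyl-CoA from citrate, stood at 139 CPM in the QTRT1 library against 244 and 294 CPM in the QTMAN libraries and 270 and 244 CPM in the QTGAL libraries. It fell 1.94-fold (log2 fold change -0.96 ± 0.15 SE, edgeR's quasi-likelihood test, Benjamini-Hochberg adjusted p = 0.044). ACLY was placed on chromosome 17, whose median was lower in the QTRT1 library, at a log2 fold change of -0.33. Centred on its neighbours along the file, ACLY had a log2 fold change of -0.52 and was not called (edgeR adjusted p = 0.22).

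KIF1A, MYEF2 and an isoform row of NRP1 were higher as well. KIF1A, a kinesin that carries synaptic vesicle precursors along axons, stood at 73.1 CPM against 18.1 and 19.0 CPM in the QTMAN libraries and 23.3 and 26.4 CPM in the QTGAL libraries. At 3.94-fold (log2 fold change 1.98 ± 0.15 SE, edgeR's quasi-likelihood test, Benjamini-Hochberg adjusted p = 3.6e-04) it had the smallest adjusted p of the named genes, and 6 of its rows were called. The called row of NRP1, the neuropilin co-receptor for semaphorins and VEGF, stood at 11.5 CPM against 4.46 and 4.42 CPM (log2 fold change 1.37 ± 0.21 SE, edgeR adjusted p = 0.044). The gene's 924-codon rows stood at 14.4 CPM against 6.40 and 5.57 CPM and missed the threshold (edgeR adjusted p = 0.058), which they passed after centring along the file (edgeR adjusted p = 0.039). MYEF2, a nucleic acid binding repressor named for its role in myelin gene expression, stood at 20.1 CPM against 7.55 and 7 CPM (log2 fold change 1.47 ± 0.19 SE, edgeR adjusted p = 0.018).

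The remaining higher genes of at least 5 CPM had varied roles. SPINT2, a Kunitz-type inhibitor of serine proteases at the epithelial surface, stood at 8.90 CPM against 1.63 and 1.47 CPM in the QTMAN libraries and 2.73 and 1.85 CPM in the QTGAL libraries. It rose 5.74-fold (log2 fold change 2.52 ± 0.30 SE, edgeR's quasi-likelihood test, Benjamini-Hochberg adjusted p = 0.013). PRR36, a proline-rich protein, stood at 5.06 CPM (71 counts) against 0.682 and 0.532 CPM (13 counts in each), a rise of 8.34-fold (log2 fold change 3.06 ± 0.47 SE, edgeR adjusted p = 0.042). In both, the 4 other libraries stayed below 3 CPM. GSE1, a protein found in histone deacetylase complexes, stood at 26.8 CPM against 11.3 and 10.6 CPM (log2 fold change 1.29 ± 0.20 SE, edgeR adjusted p = 0.044). EPPK1, the plakin that binds keratin filaments, stood at 19.3 CPM against 8.75 and 9.26 CPM (log2 fold change 1.10 ± 0.18 SE, edgeR adjusted p = 0.048). Centred along the file, EPPK1 had an edgeR adjusted p of 0.053.

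A further 4 genes were called higher but stayed under 5 CPM. BMP3, a secreted ligand of the bone morphogenetic protein family, had 54 counts in the QTRT1 library against 4 and 8 in the QTMAN libraries, or 3.84 against 0.210 and 0.328 CPM. FOXA1, a forkhead pioneer transcription factor, stood at 3.56 CPM against 0.577 and 0.696 CPM. For the other two, the low side rests on very few counts. ASTN1, an adhesion protein of migrating neurons, had 36 counts against 0 and 3, and stood at 2.18 and 1.10 CPM in the QTGAL libraries against 2.56 CPM in the QTRT1 library. The QTMAN libraries were thus the ones apart for ASTN1. TOX3, a high-mobility-group box protein, stood at 4.63 CPM against 0.262 and 0 CPM, with 0.503 and 1.52 CPM in the QTGAL libraries.

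By the fold of each gene's main row, SNAI2 led the called lower genes of at least 5 CPM in the QTMAN libraries. SNAI2, the zinc finger repressor Slug that acts in epithelial-mesenchymal transition, stood at 0.498 CPM (7 counts) in the QTRT1 library against 9.65 and 7.09 CPM in the QTMAN libraries and 6.84 and 4.13 CPM in the QTGAL libraries. It fell 16.5-fold (log2 fold change -4.04 ± 0.49 SE, edgeR's quasi-likelihood test, Benjamini-Hochberg adjusted p = 0.013), and no library overlapped with the QTRT1 library. ENPP2, the secreted enzyme autotaxin that makes lysophosphatidic acid, stood at 0.641 CPM (9 counts) against 6.29 and 3.97 CPM, with 1.89 and 2.61 CPM in the QTGAL libraries (log2 fold change -2.98 ± 0.48 SE, edgeR adjusted p = 0.048). A 499-codon row of ENPP2, at 0.142 CPM (2 counts) against 3.88 and 2.25 CPM, had a larger fold than SNAI2, 20.4-fold lower (edgeR adjusted p = 0.049). CD109, a membrane-anchored co-receptor that dampens TGF-beta signalling, stood at 2.63 CPM against 9.49 and 10.4 CPM (log2 fold change -1.91 ± 0.25 SE, edgeR adjusted p = 0.018). PLAC1, a protein of the placental trophoblast, stood at 2.49 CPM against 8.34 and 7.5 CPM (log2 fold change -1.66 ± 0.26 SE, edgeR adjusted p = 0.044). For CD109 and PLAC1 the QTGAL libraries lay between, at 7.01 and 7.67 CPM and at 5.54 and 5.90 CPM.

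AMOT, the angiomotin scaffold that binds YAP at cell junctions, stood at 71.4 CPM in the QTRT1 library against 258 and 173 CPM in QTMAN libraries 1 and 2 and 150 CPM in both QTGAL libraries. It fell 3.01-fold (log2 fold change -1.59 ± 0.21 SE, edgeR's quasi-likelihood test, Benjamini-Hochberg adjusted p = 0.017), and 5 of its rows were called. Its relative AMOTL2 lay on the other side, at 10.7 CPM against 4.56 and 3.60 CPM on a 781-codon row, and was not called (log2 fold change 1.39 ± 0.24 SE, edgeR adjusted p = 0.060). After centring along the file, a 778-codon row of AMOTL2 was called (edgeR adjusted p = 0.048). Its rows of 780, 781 and 838 codons were not (edgeR adjusted p = 0.051, 0.052 and 0.052). A difference between both genes was not tested.

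A pair of translation initiation factors was called lower. EIF1, which keeps the scanning ribosome from starting at wrong codons, stood at 87.6 CPM against 188 and 182 CPM in the QTMAN libraries and 126 and 150 CPM in the QTGAL libraries (log2 fold change -1.08 ± 0.15 SE, edgeR's quasi-likelihood test, Benjamini-Hochberg adjusted p = 0.018). EIF3G, a subunit of the eIF3 complex, stood at 41.9 CPM against 77.4 and 77.5 CPM, with 70.8 and 66.0 CPM in the QTGAL libraries (log2 fold change -0.88 ± 0.14 SE, edgeR adjusted p = 0.045). Both lay on chromosomes whose median was lower in the QTRT1 library, 17 and 19. Centred along the file, their log2 fold changes were -0.62 and -0.53, and neither was called (edgeR adjusted p = 0.25 and 0.20).

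**Figure D2:**
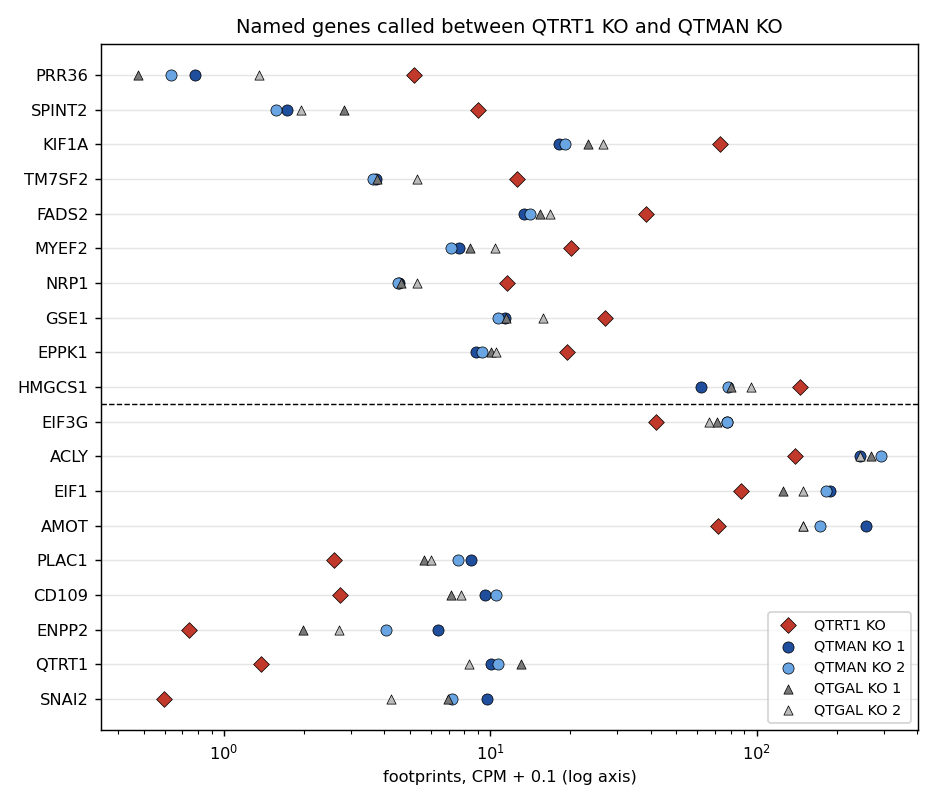
Footprint levels, as CPM + 0.1 on a log axis, in each of the 5 libraries for the 19 genes called with at least 5 CPM in the higher group, those higher in the QTRT1 library above the dashed line and those lower below it. The red diamond of the QTRT1 library lies outside all 4 other libraries in all 10 higher and all 9 lower genes. Over all tested rows, it lay above all 4 in 24.8% and below all 4 in 24.4%. The rule for naming asked this of the QTMAN libraries, not of the QTGAL libraries, whose spread entered the calls. The count is thus no separate support.

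The only QTRT1 library could not be left out. The 19 genes all kept their direction when any 1 of the other 4 libraries was left out. Each of these fits called more rows than the main one and held all of its calls, so a kept call there adds no support. With at least 5 CPM asked in 2 libraries, 16 of the 19 were tested and 9 called, while NRP1, GSE1, EPPK1, HMGCS1, PLAC1, ACLY and EIF3G lost the call. Under DESeq2, 8 of the 19 were called, KIF1A, FADS2, GSE1, HMGCS1, AMOT, EIF1, ACLY and EIF3G. DESeq2 gave the rest of the 19 no adjusted p, so their lack of a call there is no test result. The direction was the same in all 19. With 1 row per run, 16 of the 19 were tested. SPINT2, KIF1A, FADS2, MYEF2, SNAI2, QTRT1, CD109 and EIF1 were the 8 called. PRR36, GSE1, EPPK1, HMGCS1, ENPP2, PLAC1, AMOT and ACLY lost the call.

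Several genes differed from both QTMAN libraries by at least 2-fold without a call, and some of them varied as much between libraries of 1 label. EEF1A2, the neuron and muscle form of the elongation factor that brings aminoacyl-tRNA to the ribosome, stood at 200 CPM against 42.7 and 84.0 CPM in the QTMAN libraries and 29.8 and 65.5 CPM in the QTGAL libraries. The QTRT1 library was the highest, and libraries of 1 label differed by about 2-fold (log2 fold change 1.65 ± 0.37 SE, edgeR's quasi-likelihood test, Benjamini-Hochberg adjusted p = 0.14). It was called without QTGAL library 1 or 2, at 1.66 in both (edgeR adjusted p = 0.025 and 0.012), and in the fits of 1 library against 1 at 1.26 without QTMAN library 1 and 2.23 without QTMAN library 2, but not by DESeq2 (adjusted p = 0.47). EEF1A2 and its close paralog EEF1A1 may share footprints, so its level is uncertain. EEF1A1 itself stood at 1960 CPM against 2180 and 2510 CPM. ABCA3, a lipid transporter, stood at 12.4 CPM against 1.89 and 2.46 CPM, with 3.02 and 9.35 CPM in the QTGAL libraries, so that QTGAL library 2 lay near the QTRT1 library (edgeR's quasi-likelihood test, adjusted p = 0.082). After centring along the file ABCA3 was called, at 2.39 (edgeR adjusted p = 0.049). NEFM, a neurofilament subunit, stood at 11.7 CPM against 30.8 and 64.7 CPM (edgeR adjusted p = 0.27). QTGAL library 1 lay below the QTRT1 library, at 9.02 CPM, and QTGAL library 2 above it, at 35.5 CPM.

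The sterol and fatty acid list had a median above that of all rows. The gene lists here and below were chosen with earlier results of these data known. Their calls and medians are thus no independent support. Cholesterol is built from acetyl-CoA through mevalonate and squalene, and SREBP transcription factors drive most genes of the route when membrane sterol is low. Of 24 list genes tested, 18 had a log2 fold change above 0. So had 30070 of all 60966 tested rows and 620 of the 1114 named genes tested. The list median was 0.53, against -0.01 over all tested rows and 0.04 over those named genes. The calls were 2 higher, HMGCS1 and FADS2, and 1 lower, ACLY, where 0.0705% and 0.0459% of all tested rows were called. An unadjusted p under 0.05 was found in 17 of the 24 members and in 6926 of all 60966 rows. The share over all rows also applies to such counts for the lists below. DESeq2 gave an adjusted p for 20 of the 24. It called 7 higher, among them HMGCS1, FADS2, FDFT1, SC5D and SREBF2, and 1 lower, ACLY. Its calls over all rows, given above, are out of 12505 and not out of 60966. In 17 of the 24 the QTRT1 library lay above both QTMAN libraries, a share of 70.8% against 37.0% of all tested rows, and in 16 it lay above all 4 other libraries, 66.7% against 24.8%.

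SQLE, SREBF2 and FDFT1 missed the threshold. SQLE, which makes squalene epoxide, stood at 59.9 CPM against 21 and 37.0 CPM, with 41.1 and 49.7 CPM in the QTGAL libraries (log2 fold change 1.04 ± 0.25 SE, edgeR's quasi-likelihood test, Benjamini-Hochberg adjusted p = 0.15). Without QTMAN library 2 it was called at 1.51, as 1 library against 1. SREBF2, the gene of the transcription factor SREBP2, stood at 44.3 CPM against 23.4 and 22.7 CPM, with 30 and 39.5 CPM in the QTGAL libraries (log2 fold change 0.94 ± 0.17 SE, edgeR adjusted p = 0.083). FDFT1, the squalene synthase, stood at 80.5 CPM against 42.1 and 56.1 CPM (log2 fold change 0.71 ± 0.17 SE, edgeR adjusted p = 0.15). In SQLE, SREBF2 and FDFT1 the QTRT1 library was the highest of the 5, and QTMAN library 1 was lower than QTMAN library 2 in SQLE and FDFT1 but not in SREBF2.

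Other list members lay near or below 0. FASN, the fatty acid synthase, stood at 412 CPM between 345 and 486 CPM in the QTMAN libraries (log2 fold change -0.01 ± 0.17 SE). SREBF1 stood at 7.40 CPM against 7.86 and 11.7 CPM, and ACACA, the acetyl-CoA carboxylase, at 26.2 CPM against 33.7 and 38.2 CPM. FASN, SREBF1, ACACA and ACLY were all placed on chromosome 17. Centred along the file, ACACA had a log2 fold change of 0.00 and SREBF1 of -0.04. The median of the list was 0.48 after centring. It was 0.69 in the difference from QTMAN library 1 and 0.30 in that from QTMAN library 2, and the QTMAN libraries differed from each other on the list by a median of -0.33.

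**Figure D3:**
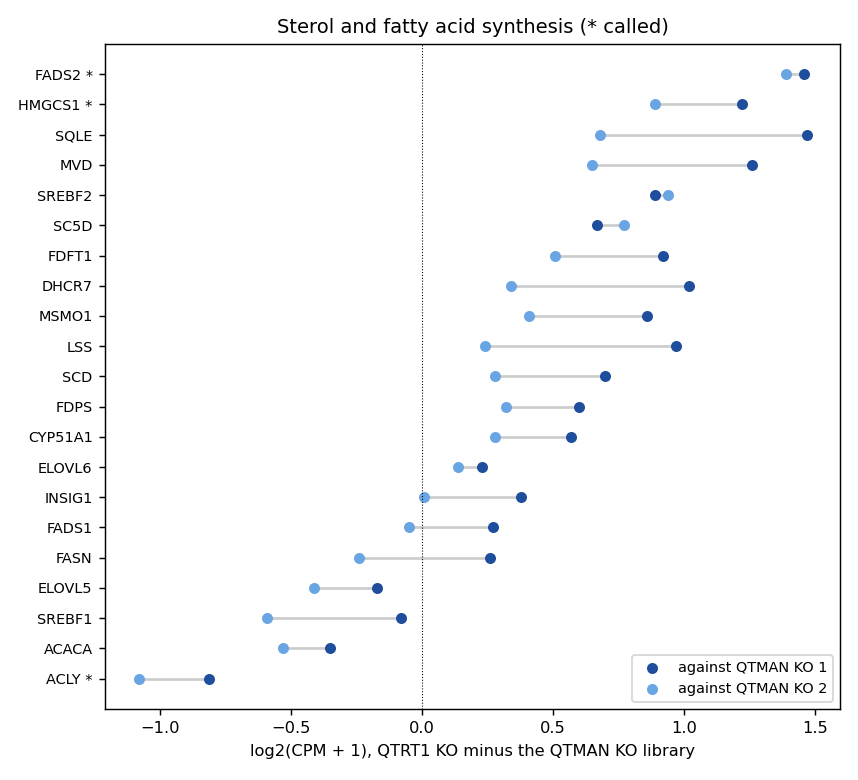
The log2(CPM + 1) difference of the QTRT1 library from QTMAN library 1 (dark) and QTMAN library 2 (light) for genes of the sterol and fatty acid list, with the called genes FADS2, HMGCS1 and ACLY starred. Most genes lie above 0 against both libraries, and the difference from QTMAN library 1 is mostly the larger; the list medians were 0.69 and 0.30.

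The 4 synthetases that charge the queuosine tRNAs were spread around 0. edgeR and DESeq2 called none of them, and 1, NARS1, had an unadjusted p under 0.05. HARS1 for histidine stood at 36.5 CPM against 41.2 and 39.2 CPM, and YARS1 for tyrosine at 116 CPM between 101 and 122 CPM. NARS1 for asparagine stood at 86.4 CPM against 59.8 and 65.6 CPM (log2 fold change 0.46 ± 0.13 SE, edgeR's quasi-likelihood test, Benjamini-Hochberg adjusted p = 0.23). NARS1 was placed on chromosome 18, whose median was higher in the QTRT1 library, and had a log2 fold change of 0.06 after centring. The 19 genes of the other cytosolic synthetases and their scaffold had a median of -0.06, with 1 unadjusted p under 0.05 and no call by edgeR or DESeq2. VARS1, for valine, stood at 53.0 CPM against 54.7 and 92.9 CPM, was not called, and was called at -0.80 without QTMAN library 1 (edgeR adjusted p = 0.028).

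Of 46 enzymes of other tRNA modifications, 42 were named and tested, 30 had a log2 fold change below 0, the median was -0.12, and edgeR called none, nor did DESeq2 among the 8 it gave an adjusted p. In this list 4 genes had an unadjusted p under 0.05. Of all 1114 named genes tested, 494 had a log2 fold change below 0. TRMT10A, a methyltransferase of a guanosine in tRNA, lay farthest below, at 1.85 CPM against 3.46 and 4.10 CPM (log2 fold change -1.03 ± 0.33 SE, edgeR's quasi-likelihood test, Benjamini-Hochberg adjusted p = 0.27). CTU1, which takes part in thiolation of wobble uridines, stood at 5.41 CPM against 8.86 and 9.01 CPM, and YRDC, which acts in the synthesis of threonylcarbamoyl adenosine, at 9.33 CPM against 15.4 and 13.9 CPM (edgeR adjusted p = 0.25 and 0.27). The 14 genes of GDP-mannose and UDP-galactose supply, the sugar donors of such transferases, had a median of 0.05, with 3 unadjusted p-values under 0.05, no call by edgeR and none by DESeq2, which gave an adjusted p for 4.

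Elongation and ribosome rescue factors, 24 genes, had a median of -0.01. edgeR called none, 6 had an unadjusted p under 0.05, and DESeq2 called 1, EIF5A, of the 20 it gave an adjusted p. EIF5A, which helps ribosomes past poor peptide bonds, stood at 225 CPM against 359 and 351 CPM, with 368 and 301 CPM in the QTGAL libraries (log2 fold change -0.66 ± 0.14 SE, edgeR's quasi-likelihood test, Benjamini-Hochberg adjusted p = 0.12). It was called without QTMAN library 2 (-0.68, edgeR adjusted p = 0.0017), without QTGAL library 2 (edgeR adjusted p = 0.045) and by DESeq2 (adjusted p = 0.022), and stood at -0.20 after centring, on chromosome 17. GTPBP1, a GTPase that acts on stalled ribosomes, was the highest after EEF1A2 in this list, at 31.6 CPM against 23.5 and 21 CPM. ZNF598 and GCN1, which sense collided ribosomes, gave no call: ZNF598 stood at 18.2 CPM against 14.4 and 16.9 CPM, and GCN1 at 87.4 CPM against 92.5 and 118 CPM.

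The 77 named cytosolic ribosomal proteins had a median of -0.06 and ranged from -0.67 to 0.41. edgeR called none, and 16 had an unadjusted p under 0.05. Of the 75 it gave an adjusted p, DESeq2 called 3 lower, RPS28, RPL26 and RPL19. RPS28 stood at 97.4 CPM against 155 CPM in both QTMAN libraries (log2 fold change -0.67 ± 0.13 SE, edgeR's quasi-likelihood test, Benjamini-Hochberg adjusted p = 0.093), and RPL26 at 236 CPM against 344 and 340 CPM (-0.53 ± 0.12 SE, edgeR adjusted p = 0.14). RPS28 was called without QTMAN library 2 or QTGAL library 2 (edgeR adjusted p = 0.0064 and 0.049), and RPL26 without QTMAN library 2 (edgeR adjusted p = 0.028). At the other end were RPLP2, at 291 CPM against 208 and 229 CPM, and RPL17, at 220 CPM against 166 and 169 CPM. RPS28 lay on chromosome 19, RPL26 on 17 and RPL17 on 18, and after centring they stood at -0.27, -0.08 and -0.04.

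Stress response genes gave no call by edgeR or DESeq2, with an unadjusted p under 0.05 in 2 genes of the integrated stress response list, 3 of the endoplasmic reticulum list and 2 of the cytosolic chaperones. Of all 1114 named genes tested, 620 lay above 0. In the integrated stress response list, 17 of 21 tested genes lay above 0 and the median was 0.12, with a difference of 0.19 from QTMAN library 1 and -0.03 from QTMAN library 2. ATF4, the transcription factor at its centre, stood at 15.7 CPM against 11.8 and 11.5 CPM (log2 fold change 0.43 ± 0.25 SE, edgeR's quasi-likelihood test, Benjamini-Hochberg adjusted p = 0.56). Its targets ASNS and PHGDH stood at 87.0 CPM against 82.5 and 88.9 CPM, and at 261 CPM against 229 and 232 CPM. Of 18 endoplasmic reticulum chaperones and folding genes, 14 lay above 0 and the median was 0.17. HSPA5, the main chaperone of that compartment, stood at 320 CPM between 312 and 325 CPM, and HYOU1 at 87.1 CPM against 64.1 and 73.6 CPM (edgeR adjusted p = 0.40). The 20 cytosolic chaperones had a median of 0.03.

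Of 31 kinesins tested, KIF1A was the 1 called, by edgeR and by DESeq2 (adjusted p given for 15), and the median was 0.04. The next highest, KIF13B, stood at 4.49 CPM against 2.62 and 2.95 CPM (log2 fold change 0.68 ± 0.30 SE, edgeR's quasi-likelihood test, Benjamini-Hochberg adjusted p = 0.42). KIF1B, the closest relative of KIF1A, stood at 13.5 CPM against 12.7 and 11.4 CPM. Mitotic kinesins lay on both sides of 0, with KIF4A at 38.9 CPM against 30.9 and 31.7 CPM and KIF23 at 28.3 CPM against 34.2 and 40.7 CPM. The 32 cell cycle genes had a median of 0.01, with 7 unadjusted p-values under 0.05 and no call by edgeR or DESeq2. TOP2A, the topoisomerase of dividing cells, stood at 166 CPM against 242 and 238 CPM and was called without QTMAN library 2 (-0.55, edgeR adjusted p = 0.036), and MCM5, a subunit of the replicative helicase, stood at 91.5 CPM against 78.1 and 54.0 CPM and was called without QTMAN library 1 (0.77, edgeR adjusted p = 0.038). TOP2A, on chromosome 17, stood at -0.08 after centring.

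In the matrix and adhesion list, 31 genes were tested and 21 lay above 0, as did 620 of all 1114 named genes tested. The median was 0.09 and SPINT2 alone was called. ITGA6, an integrin chain that binds laminin, came next, at 9.61 CPM against 4.51 and 3.93 CPM, with 4.95 and 4.47 CPM in the QTGAL libraries (log2 fold change 1.19 ± 0.23 SE, edgeR's quasi-likelihood test, Benjamini-Hochberg adjusted p = 0.093). Laminin chains lay on both sides, LAMB2 at 31 CPM against 22.1 and 20.8 CPM and LAMC1 at 69.1 CPM against 91.0 and 91.4 CPM. COL3A1 had the lowest log2 fold change of the list, on few counts, at 0.142 CPM against 2.88 and 0.737 CPM (-3.56 ± 1.08 SE, edgeR adjusted p = 0.25). COL5A2 stood at 4.13 CPM against 9.80 and 9.54 CPM, but at 1.13 and 3.45 CPM in the QTGAL libraries, so that the QTMAN libraries were the high ones.

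**Figure D4:**
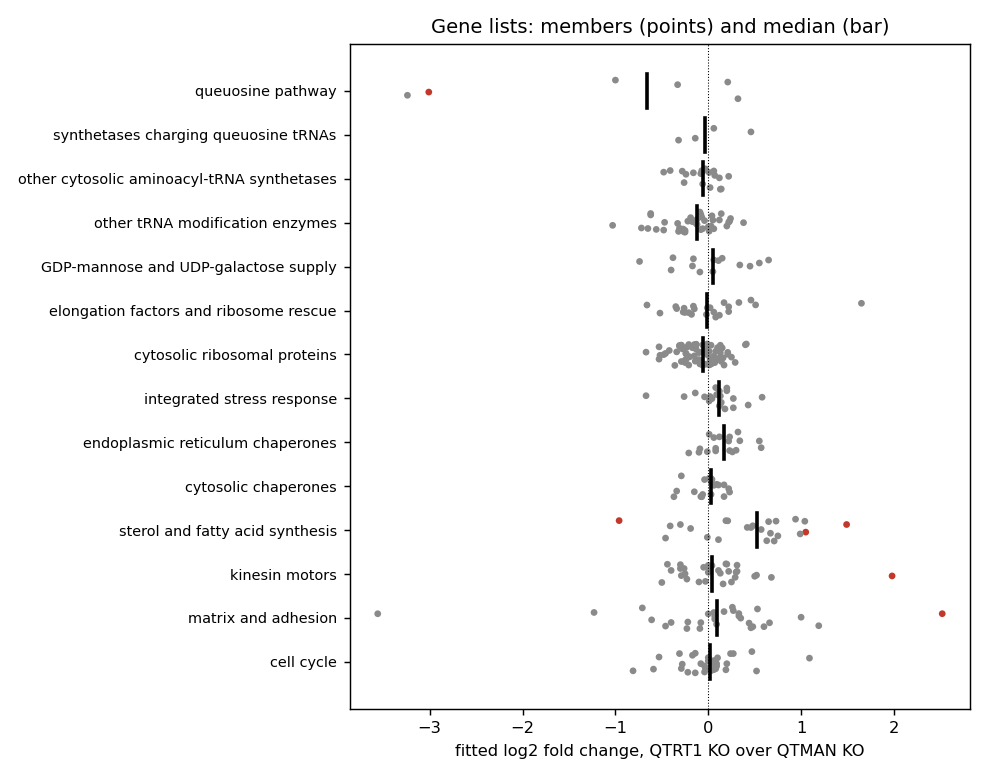
Fitted log2 fold change of the QTRT1 library over the QTMAN libraries for each tested member (points, red where called) and the median (bar) of 14 gene lists. The sterol and fatty acid list has a median of 0.53, the queuosine list of 6 genes one of -0.66 through QTRT1 and GTDC1, and the other lists lie between -0.12 and 0.17.

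Markers of cell type were summed because the called gene SNAI2 is itself such a marker. The 10 epithelial markers summed to 116 CPM in the QTRT1 library, against 72.0 and 87.7 CPM in the QTMAN libraries and 66.2 and 83.2 CPM in the QTGAL libraries. KRT18 and OCLN, a keratin and a tight junction protein, carried most of the difference, at 36.2 CPM against 16.1 and 23.1 CPM and at 24.0 CPM against 11.3 and 12.5 CPM, and neither was called (edgeR's quasi-likelihood test, Benjamini-Hochberg adjusted p = 0.14 and 0.082). After centring along the file OCLN was called (edgeR adjusted p = 0.039) and KRT18 was not (0.18). Of the defining epithelial markers, KRT19 was at 0 in all libraries, and EPCAM and CDH1 stood at 0.142 and 0.783 CPM in the QTRT1 library, so the label epithelial is met in part. The 10 mesenchymal markers summed to 482 CPM against 507 and 554 CPM, with 459 and 535 CPM in the QTGAL libraries, so that QTGAL library 1 lay lower still. They held 1 call, SNAI2. VIM stood at 358 CPM against 389 and 451 CPM, while CDH2, the neural cadherin, was the other way, at 88.4 CPM against 50.8 and 53.5 CPM (log2 fold change 0.76 ± 0.15 SE, edgeR adjusted p = 0.093; 0.48 after centring). The 7 named neuronal markers summed to 137 CPM against 156 and 193 CPM, with 125 and 162 CPM in the QTGAL libraries. NEFM made up most of that gap, while SYP stood at 8.90 CPM against 5.03 and 5.57 CPM and MAP2 at 1.35 CPM against 0.157 and 0.205 CPM, neither of them called (edgeR adjusted p = 0.23 and 0.14). Renal tubule markers summed to 2.42 CPM against 1.26 and 0.942 CPM, and the 3 named blood markers stayed below 1 CPM in every library. The part of these markers in the calls was not tested.

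The medians of some chromosomes shifted between the libraries. Over 6147 runs of neighbouring rows with at least 500 counts, the median log2 fold change was -0.33 on chromosome 17 (346 runs) and -0.25 on chromosome 19 (367 runs), and 0.42 on chromosome 18 (77 runs). These shifts were alike against both QTMAN libraries, at -0.32 and -0.31 on chromosome 17 and at 0.42 and 0.35 on chromosome 18. On chromosome 22 the median was 0.07 against QTMAN library 1 and 0.38 against QTMAN library 2, and on chromosome 21 it was 0.26 and -0.07. There the QTMAN libraries differed from each other, by 0.28 and -0.39. Chromosome 17 held 8 of the 28 lower calls, 5 rows of ACLY and 3 of EIF1, and none of the higher ones. Chromosomes 8 and X, each with a median log2 fold change of 0, held 6 lower calls each. Chromosome 8 also held 2 higher ones. Chromosome 19 held 7 higher and 5 lower calls, and chromosome 18 held none. After centring each library along the file, edgeR called 53 rows higher and 19 lower, in place of 43 and 28, and 55 of the 71 first called rows were among them. Centring did not move all genes of a chromosome alike. On chromosome 17 the log2 fold change of ACLY went from -0.96 to -0.52, but that of B3GNTL1 from -1 to -1.15. On chromosome 19 that of EIF3G went from -0.88 to -0.53, but that of SPINT2 only from 2.52 to 2.56. The cause of the shifts was not tested.

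**Figure D5:**
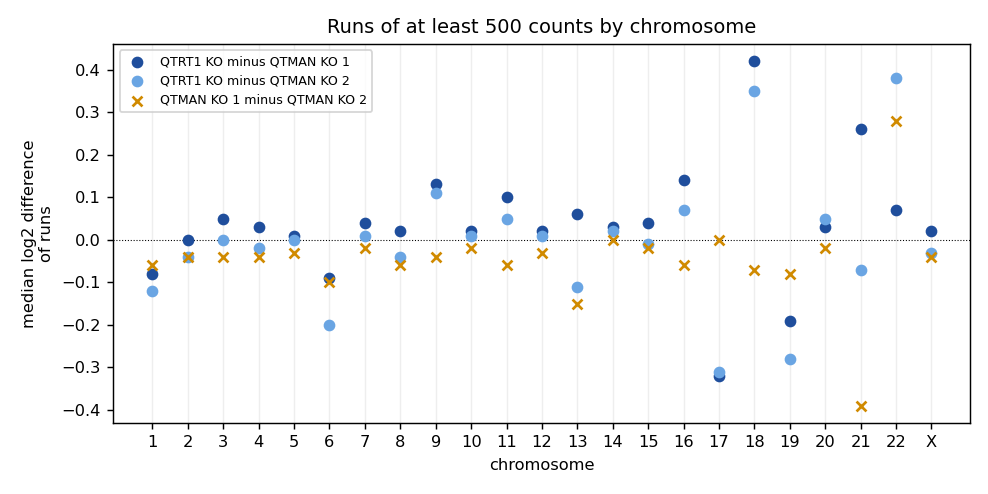
Median log2 difference of runs with at least 500 counts by chromosome, for the QTRT1 library against each QTMAN library (circles) and between the QTMAN libraries (crosses). Chromosomes 17 and 19 lie below 0 and chromosome 18 above 0 against both QTMAN libraries, while on 21 and 22 the QTMAN libraries differ from each other.

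Coding length made little difference. Runs of up to 100 codons had a median log2 fold change of -0.08 (248 runs), those of 101 to 300 codons of -0.03, and those of 301 to 1000 codons and over 1000 codons of -0.01 each. The share of codons read by queuosine tRNAs was not analysed here, as the files hold neither sequences nor codon counts.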

How the data were processed

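Footprint libraries of 5 HEK293T knockout samples were used, 3 of them in the comparison. Per the labels' protocols, extracts were digested with RNase I and short protected fragments were cloned; the submitters' processing notes name bcl2fastq 2.19, CASAVA, STAR 2.7.0a and hg38. The deposited tables give whole-number footprint counts per transcript, not normalized, and a length of unit other, read here as coding codons. The sources used here name no counting program, annotation or strand setting. All rows with a length were kept (93916 of 182398).

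edgeR 4.0.16 in R 4.3.3 was run on all 5 libraries (filterByExpr, TMM, quasi-likelihood test, 1 mean per genotype, 2 residual degrees of freedom; calls at a Benjamini-Hochberg adjusted p under 0.05). The QTRT1 library has no replicate and was assumed to vary like the other libraries. An SE is the log2 fold change divided by the square root of F. Alternatives used DESeq2 1.42.0, other filters, 1 row per run of neighbouring rows, and values centred on the running median of 51 runs along the file. The test was run on simulated data that drew each row separately and gave the QTRT1 library the same spread as the others. Those data cannot check the effect of shared footprints or of the unknown spread of the QTRT1 library.

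The tables carry no gene symbols. A row was named where its length matched the known protein length and its place fitted RefSeq gene order (GRCh38.p14). No file gave the protein lengths, so names are inferred: 1287 genes, 1362 rows. The 19 genes named first are those called, of at least 5 CPM in the higher group and beyond both QTMAN libraries, up to 12 per direction by size. Queuosine genes, called list members and list extremes (at least 20 CPM in each library) follow. The comparison and gene lists were chosen with earlier results of these data known. Some members of the lists are counted but not reported here by name.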

Additional observations from a re-analysis of the deposited data

How the results depend on the processing

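The 71 calls became 1159 without a filter on low counts, 26 with at least 5 CPM in 2 libraries, 411 with the QTRT1 and QTMAN libraries alone in the fit, 8 with 1 row per run (fewer rows tested) and 163 with DESeq2, and 172 to 1144 when 1 library was left out. They were 78 with DESeq2 size factors and 72 after centring. DESeq2 gave an adjusted p for 12505 rows. It gave none for 45 of the 71 and called the other 26. The 69 rows past 2-fold of both QTMAN libraries became 745 at 1.5-fold, 3 at 4-fold, 190 with a mean of at least 1 CPM, 22 with at least 20 CPM, 26 with 1 row per run, and 173 to 250 without 1 QTMAN library, where the mean of at least 5 CPM was taken over the 2 libraries left and the row set changed. Other causes were not tested.

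Some log2 fold changes that were never called changed sign: on leaving out 1 library, YARS1 (-0.06 to 0.20), ASNS (-0.02 to 0.08), SLC7A5 (-0.20 to 0.15) and CANX (-0.06 to 0.06), then CANX (0.01) with at least 5 CPM in 2 libraries, and DPM1 (-0.02), RPL17 (-0.04) and ASNS (-0.05) after centring. No paired analysis was possible because QTRT1 KO has 1 library. The planned description by amino acid share was not run, as no protein sequences were at hand. With 1 QTRT1 library, its own spread is unknown.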

Other observations

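QTMAN library 1 stood apart from QTMAN library 2 in a few rows, and in most of these from the other libraries too. In 12 rows of at least 5 CPM on average, the QTMAN libraries differed by at least 3 on the log2(CPM + 1) scale, and QTMAN library 1 was the higher in each. These rows had no name and were chosen after their values were seen. Some of them had the same counts in every library, so the 12 rows are not independent. The row uc002flb.5, of 196 codons on chromosome 16, stood at 52.2 CPM in QTMAN library 1, at 0.041 CPM in QTMAN library 2, at 0.0712 CPM in the QTRT1 library and at 0.419 and 0.0842 CPM in the QTGAL libraries. The row uc004fdw.3, of 319 codons on the X chromosome, stood at 14.8 CPM in QTMAN library 1 and at 0.427 CPM or less in the others. The row uc004ffl.4, of 370 codons on the X chromosome, stood at 33.9 CPM in QTMAN library 1, at 16.7 CPM in the QTRT1 library and between 0.587 and 1.76 CPM in the other 3. GTDC1 showed a like pattern, with 7.86 CPM in QTMAN library 1 and under 1 CPM elsewhere.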
